A study of Mus musculus with 6 samples.

Results

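The genes described here are 34 mouse genes that make cholesterol and fatty acids or control that synthesis. They were chosen by name and role, with earlier results of these data known. The set holds 18 enzymes of sterol synthesis, 6 genes that control the pathway or carry sterols and 3 that supply acetyl-CoA or NADPH. The other 7 are enzymes of fatty acid synthesis and desaturation. The 34 are among 16254 genes in the count table, and each of them passed the filter on low counts, which left 13498 genes to test.

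Eosinophils were grown from C57BL/6 mouse bone marrow with Flt3 ligand and stem cell factor, then with IL-5, and were cultured for 24 h with extracellular vesicles (EVs) from activated TH2 cells or with a sham control. The EVs were isolated by size exclusion chromatography and ultrafiltration and given at 5e9 EVs/mL, and the sham was medium that no cells had conditioned, taken through the same steps and given in equal volume. Libraries of polyadenylated RNA came from 3 EV-treated and 3 sham-treated replicates, labelled as biological replicates 1 to 3 in each group. Whether same-numbered replicates came from one mouse or culture is not given in the sources used here, so p-values measure the spread between these libraries. The study sequenced RNA to learn how TH2 cell EVs affect eosinophil viability, in cells grown in culture and not taken from tissue. It reported that more eosinophils survived 24 h with activated TH2 cell EVs than without treatment. The part of that difference in survival in the changes below was not tested. Library totals of estimated counts lay from 23697620 to 37874426, and counting error was small for most of these genes.

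Cells build cholesterol from acetyl-CoA through the mevalonate arm, which ends in farnesyl pyrophosphate, and then through squalene and lanosterol. The transcription factor SREBP-2, encoded by Srebf2, is held in the endoplasmic reticulum by the escort protein SCAP and the anchors INSIG1 and INSIG2 while sterols are plentiful. When sterols fall, SCAP carries it to the Golgi, where it is cleaved, and the released part enters the nucleus and drives the sterol enzymes together. SREBP-1, encoded by Srebf1, does the same chiefly for fatty acid synthesis, and the liver X receptors (LXRs) sense oxidised sterols and drive sterol export, Srebf1 and several fatty acid enzymes.

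SREBPs bind a sterol regulatory element in promoters, often with NF-Y, which binds CCAAT, and with Sp1, which binds the GC box GGGCGG, close by. RefSeq promoter windows of 300 bases on GRCm38.p6, from 250 bases before to 50 after the start site, were matched for 27 of the 34 genes. These genes had 36 windows, since 6 genes had more than 1, and a gene was counted where any of its windows held a match. Windows were not matched for Fdps, Fdft1, Sqle, Stard4, Scd1, Scd2 and Fads1. The core of the element, TCACNCCAC on either strand, was found for 1 of the 27 genes (3.7%), Hmgcs1, against 1.36% of 9999 tested genes with a window. CCAAT on either strand was found for 22 of 27 genes (81.5%) against 43.3% of tested genes, and GGGCGG for 23 of 27 (85.2%) against 66.9%. By window, 1 of 36 held this core, 23 held CCAAT and 27 held GGGCGG. Over all 32851 windows the shares were 1.24%, 37.4% and 35.7%. Counted by gene, over the 27025 genes with any window, the shares were 1.44%, 41.1% and 38.2%. A match to these letters is a description of the window and not a bound site. The lack of a match does not show that a gene lacks the element, since only this string and these 300 bases were searched. Below, the element means a match to this core string. The following 4 windows are shown because Hmgcs1 holds the element, Insig1 and Fasn are among the genes that rose, and Acss2 is among those that fell. Each runs 5′ to 3′ on the strand of its gene, with capitals marking the element and CCAAT on either strand.
Hmgcs1, chr13:119690101-119690400, + strand, with the element starting 137 bases before the start site:
Hmgcs1: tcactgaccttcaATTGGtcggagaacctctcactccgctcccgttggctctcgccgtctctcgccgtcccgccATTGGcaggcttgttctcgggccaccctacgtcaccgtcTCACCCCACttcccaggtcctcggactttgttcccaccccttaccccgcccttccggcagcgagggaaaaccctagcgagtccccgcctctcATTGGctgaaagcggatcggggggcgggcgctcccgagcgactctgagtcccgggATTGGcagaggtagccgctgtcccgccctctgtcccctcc
Insig1, chr5:28071162-28071461, + strand, with 1 CCAAT match:
Insig1: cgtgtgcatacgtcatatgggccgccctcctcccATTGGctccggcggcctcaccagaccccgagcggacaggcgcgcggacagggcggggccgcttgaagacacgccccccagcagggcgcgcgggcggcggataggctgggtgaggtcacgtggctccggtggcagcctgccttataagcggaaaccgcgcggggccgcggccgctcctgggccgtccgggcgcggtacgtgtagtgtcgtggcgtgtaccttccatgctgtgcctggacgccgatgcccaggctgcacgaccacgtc
Fasn, chr11:120824498-120824797, − strand, with 3 CCAAT matches, of which 1 pair overlaps, and no GGGCGG match:
Fasn: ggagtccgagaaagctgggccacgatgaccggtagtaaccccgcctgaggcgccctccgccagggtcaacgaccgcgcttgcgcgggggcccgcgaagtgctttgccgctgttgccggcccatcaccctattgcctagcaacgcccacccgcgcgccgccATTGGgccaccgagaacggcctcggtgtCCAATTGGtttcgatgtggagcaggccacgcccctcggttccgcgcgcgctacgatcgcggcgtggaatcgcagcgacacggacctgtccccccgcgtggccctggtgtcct
Acss2, chr2:155517793-155518092, + strand, with 1 CCAAT and 5 GGGCGG matches:
Acss2: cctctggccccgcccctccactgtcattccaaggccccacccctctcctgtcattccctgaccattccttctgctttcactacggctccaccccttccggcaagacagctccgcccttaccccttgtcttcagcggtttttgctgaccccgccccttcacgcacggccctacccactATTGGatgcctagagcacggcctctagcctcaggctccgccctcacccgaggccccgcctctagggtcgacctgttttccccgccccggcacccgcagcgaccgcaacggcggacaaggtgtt

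EV-treated and sham-treated eosinophils differed in many of these genes, most of them higher with EVs. A gene was called where edgeR's quasi-likelihood test gave an adjusted p under 0.01, by the Benjamini-Hochberg method over all genes tested. Of the 34 genes, 19 were higher with EVs, against 12.1% of all genes tested. Another 4, Acss2, Me1, Scd1 and Fads1, were lower, against 11.6% of all genes. The other 11 did not pass. Of the 18 sterol synthesis enzymes, 12 were higher in EV-treated eosinophils and 6 did not pass, while genes of fatty acid synthesis and supply were called in both directions, 3 higher and 4 lower of 10. With library totals in place of edgeR's TMM scaling, 11 of the 34 were higher and 4 lower, while the calls over all genes went from 1632 higher and 1572 lower to 1036 higher and 2342 lower. The median log2 fold change was 0.50 over the 34 genes and -0.01 over all genes. With a log2 fold change of at least 1 also required, 0 genes were higher, where 3.1% of all genes passed, and 3 were lower, Me1, Scd1 and Fads1, where 6.35% of all genes passed. The 3 EV-treated libraries all lay above the 3 sham-treated ones for 23 genes, against 24.8% of all genes, and all below for 4, against 24.7%. The smallest p that an exact two-sided permutation test allows for 1 gene with 3 libraries a group is 0.1. Many of the genes share regulators, so the 34 are not independent of each other.

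**Figure D1:**
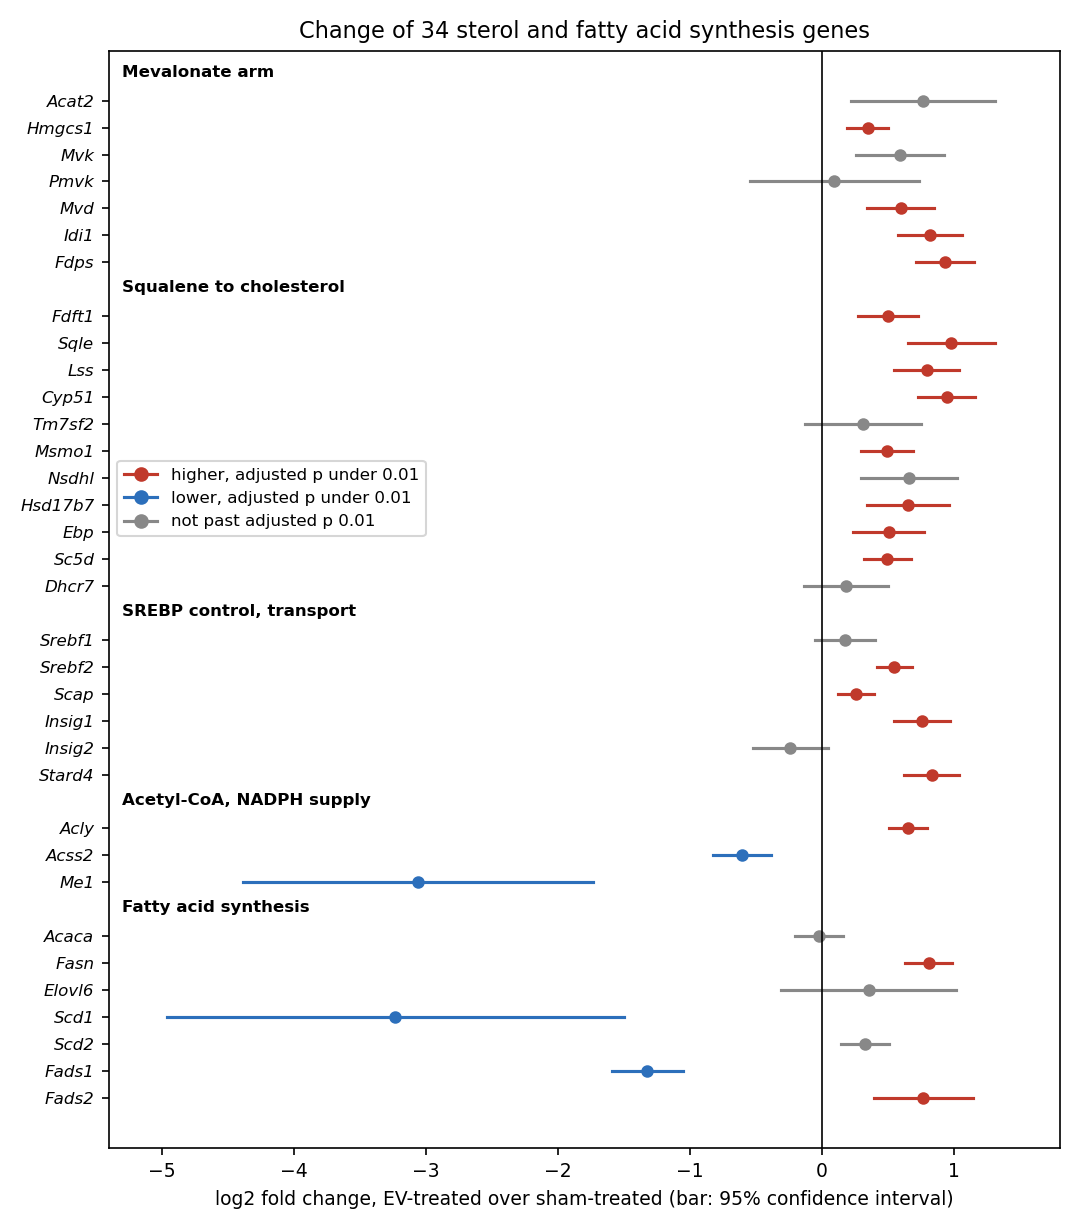
Log2 fold change of EV-treated over sham-treated libraries (x axis) for each of the 34 genes (y axis), grouped by role, with bars for the 95% confidence interval and colour for the call. Most sterol genes lie right of 0, up to 0.98 for Sqle, while Me1 at -3.06 and Scd1 at -3.23 lie far to the left with wide bars.

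Of the 7 enzymes of the mevalonate arm, 4 were higher with EVs, 0 were lower and 3 did not pass, and the 7 together summed to 4101 to 4375 normalized counts in the sham-treated and 6394 to 6571 in the EV-treated libraries. Normalized counts here are rounded counts scaled between the 6 libraries by their totals and edgeR's TMM factors. Fdps makes farnesyl pyrophosphate, the branch point between sterols and other isoprenoids. It had 968, 1047 and 835 normalized counts in sham replicates 1 to 3 and 1884, 1659 and 1881 in EV replicates 1 to 3. The groups were far apart, with a log2 fold change of 0.93 ± 0.10 (SE, n = 3 per group, edgeR adjusted p = 5.3e-05). Gm43738, which overlaps it on the same strand, shares 24.6% of its 31-base words. Idi1, which interconverts the 5-carbon units of the pathway, had 523, 455 and 571 with sham and 923, 915 and 888 with EVs. Its EV-treated libraries were tightly grouped and its log2 fold change was 0.82 ± 0.11 (adjusted p = 0.00024). Idi1 shares 18.4% of its 31-base words with Gm13502 and 27.1% with other genes in all. Mvd, which decarboxylates mevalonate pyrophosphate, had 625, 525 and 503 with sham and 780, 847 and 873 with EVs. Its log2 fold change was 0.60 ± 0.11 (adjusted p = 0.0025), and it lost the call without EV replicate 2 (adjusted p = 0.016) or 3 (adjusted p = 0.019).

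Hmgcs1, which makes the HMG-CoA that enters the pathway and carries the element in the window above, was the smallest called rise of the arm. It had 1659, 1565 and 1673 normalized counts with sham and 2179, 2080 and 1971 with EVs. The groups did not overlap, but the log2 fold change was only 0.35 ± 0.07 (edgeR adjusted p = 0.0033). The call was lost without sham replicate 2 (adjusted p = 0.011), EV replicate 1 (0.022) or EV replicate 2 (0.018). Antisense transcript Gm48342 shares 10.9% of the 31-base words of Hmgcs1, and the strand setting of the counting is not given in the sources used here. Among the 3 enzymes that did not pass, Acat2, which joins acetyl-CoA units, ranged from 107 to 197 with sham and from 233 to 312 with EVs (log2 fold change 0.76, adjusted p = 0.034). Acat2 shares 43.7% of its 31-base words with Acat3, so its value is uncertain. Mvk, the mevalonate kinase, ranged from 194 to 218 with sham and 294 to 327 with EVs (0.59, adjusted p = 0.012). Pmvk, the next kinase, ranged from 119 to 284 with sham and 229 to 261 with EVs, so its groups overlapped (0.09, adjusted p = 0.83).

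From squalene to cholesterol, 8 of 11 enzymes were higher with EVs, 0 were lower and 3 did not pass. Together the 11 summed to 6408 to 7312 normalized counts with sham and 10827 to 11009 with EVs. Sqle, the squalene epoxidase and an oxygen-dependent control point of the pathway, had the largest log2 fold change of the 34 genes that was above 0. It had 512, 501 and 752 normalized counts with sham and 1151, 1139 and 1182 with EVs. Sham replicate 3 stood above the other sham-treated libraries, and all 3 EV-treated libraries were higher still (log2 fold change 0.98 ± 0.15, edgeR adjusted p = 0.00054). Cyp51, which removes a methyl group from lanosterol, had 1199, 1023 and 1345 with sham and 2370, 2219 and 2280 with EVs. Its log2 fold change was 0.94 ± 0.10 (adjusted p = 4.2e-05). Lss, which closes the ring to form lanosterol, had 779, 692 and 598 with sham and 1270, 1142 and 1178 with EVs. Its log2 fold change was 0.79 ± 0.11 (adjusted p = 0.00031).

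Hsd17b7, a sterol ketoreductase, had 340, 315 and 267 normalized counts with sham and 475, 503 and 471 with EVs, a log2 fold change of 0.65 ± 0.14 (edgeR adjusted p = 0.0044). Of the 6 fits that left out a library it passed in 2, and its adjusted p was 0.011 without sham replicate 3, 0.016 without EV replicate 1, 0.025 without EV replicate 2 and 0.020 without EV replicate 3. Fdft1, the squalene synthase, had 549, 499 and 572 with sham and 765, 759 and 767 with EVs, a log2 fold change of 0.50 ± 0.10 (adjusted p = 0.0033). Its call was lost without any one of EV replicates 1 to 3 (adjusted p = 0.016, 0.019 and 0.021). Ctsb, on the other strand, shares 17.6% of the 31-base words of Fdft1, and 31.9% occur in other genes in all. Ctsb had a mean of 67167 normalized counts with sham and 13177 with EVs. As the strand setting is not given, its part in the Fdft1 counts is unknown. Ebp, a sterol isomerase, had 451, 429 and 481 with sham and 680, 570 and 682 with EVs (log2 fold change 0.51 ± 0.12, adjusted p = 0.0083). Ebp was called in 0 of the 6 fits that left out a library, with log2 fold changes from 0.47 to 0.59 in those fits. The other 2 that rose were Msmo1, a C4-methyl oxidase, and Sc5d, a sterol desaturase, each with a log2 fold change of 0.49. Msmo1 lost its call without EV replicate 2 (adjusted p = 0.015) or 3 (adjusted p = 0.010). Nsdhl, a sterol dehydrogenase, lay just outside the threshold, with 245 to 309 normalized counts with sham and 375 to 505 with EVs (0.66, adjusted p = 0.0102), and passed without sham replicate 2 (adjusted p = 0.0094). The sterol reductases Tm7sf2 (0.31, adjusted p = 0.26) and Dhcr7 (0.18, adjusted p = 0.36) had groups that overlapped.

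The genes that control the pathway moved unequally. Of 6, 4 were higher with EVs, 0 were lower and 2 did not pass. Srebf2 had 7415, 7187 and 6872 normalized counts with sham and 10284, 10151 and 10955 with EVs. Replicates of each group were close, and the log2 fold change was 0.55 ± 0.06 (edgeR adjusted p = 5.2e-05). Srebf1 had 1779, 2393 and 2063 with sham and 2333, 2239 and 2451 with EVs. Its groups overlapped, and its log2 fold change of 0.17 had a 95% confidence interval of -0.05 to 0.40 (adjusted p = 0.22). The difference between the changes of Srebf1 and Srebf2 was not tested. Insig1, a sterol-dependent anchor that is itself an SREBP target, had 913, 815 and 732 with sham and 1430, 1389 and 1348 with EVs. The EV-treated libraries were all higher (log2 fold change 0.76 ± 0.10, adjusted p = 0.00016). Stard4, which carries cholesterol between membranes, had 833, 906 and 780 with sham and 1638, 1428 and 1416 with EVs (0.83 ± 0.09, adjusted p = 7.7e-05).

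Scap ranged from 2536 to 2675 normalized counts with sham and 3028 to 3245 with EVs, a log2 fold change of 0.26 (edgeR adjusted p = 0.0090). It was called in 1 of the 6 fits that left out a library. The adjusted p was 0.016 without sham replicate 2, 0.026 without sham replicate 3, and 0.022, 0.035 and 0.046 without EV replicates 1, 2 and 3. The replicate block also ended this call (adjusted p = 0.015). Insig2, the anchor that SREBPs do not drive, ranged from 450 to 547 with sham and 414 to 453 with EVs (-0.24, adjusted p = 0.17). Per kilobase of its longest coding transcript, Srebf2 had the highest mean level of the 34 genes in both groups, 1410 normalized counts with sham and 2061 with EVs.

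**Figure D2:**
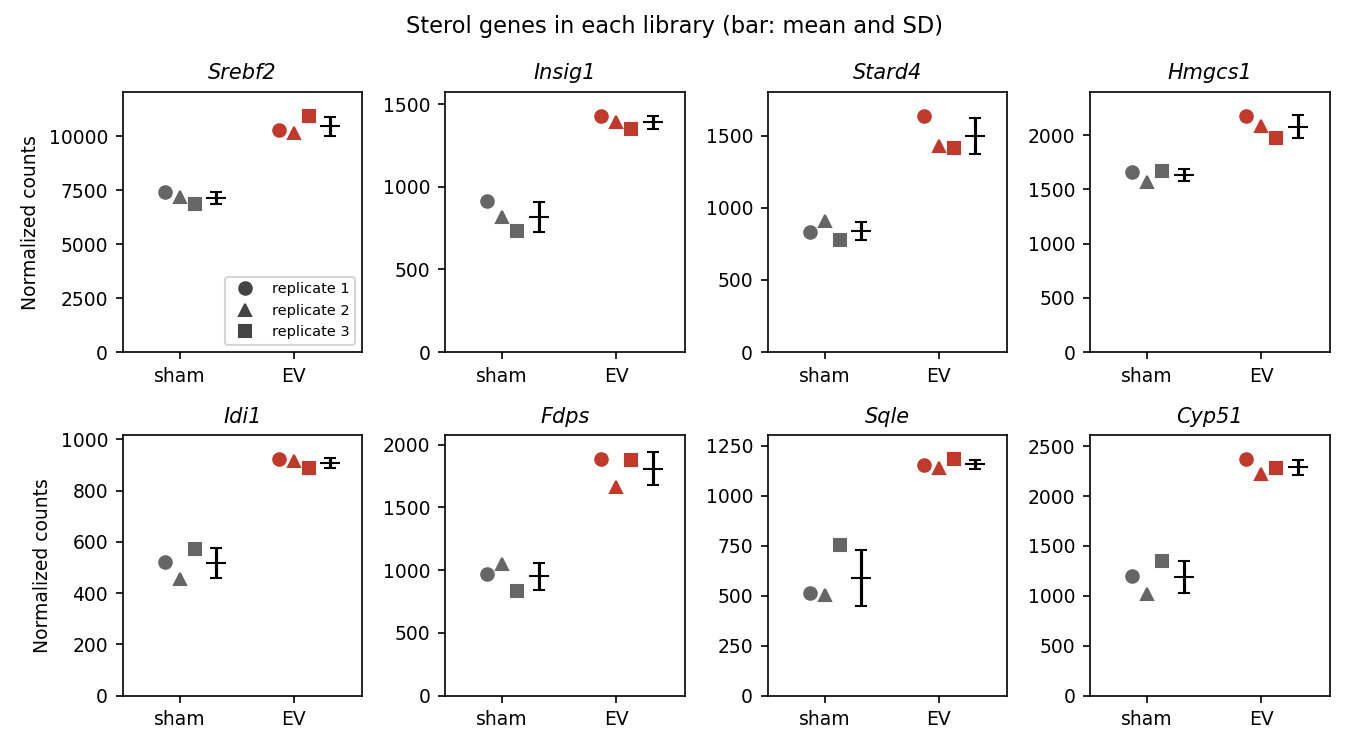
Normalized counts (y axis, from 0) of 8 sterol genes in each sham-treated (grey) and EV-treated (red) library (x axis), with symbols for the replicate number and a black bar for the mean and SD of 3 libraries. In each panel the 3 EV-treated libraries lie above the 3 sham-treated ones, as for Srebf2, with 6872 to 7415 against 10151 to 10955.

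Genes that feed or carry out fatty acid synthesis split in both directions. Of the 3 supply genes, 1 was higher and 2 were lower, and of the 7 synthesis and desaturation genes, 2 were higher, 2 were lower and 3 did not pass. Acly, which makes cytosolic acetyl-CoA from citrate, had 5547, 5173 and 5854 normalized counts with sham and 8418, 8618 and 9019 with EVs. The groups were well apart (log2 fold change 0.65 ± 0.06, edgeR adjusted p = 3e-05). Fasn, the fatty acid synthase, had 2524, 2395 and 2616 with sham and 4784, 3950 and 4462 with EVs. Its log2 fold change was 0.81 ± 0.08 (adjusted p = 3.3e-05). Acaca, the acetyl-CoA carboxylase that feeds Fasn with malonyl-CoA, had 1567, 1603 and 1526 with sham and 1692, 1498 and 1422 with EVs. Its groups overlapped and its 95% confidence interval was -0.21 to 0.16 around a log2 fold change of -0.03 (adjusted p = 0.83). Gm5182 shares 31.7% of the 31-base words of Acaca. Elovl6, which elongates palmitate, ranged from 68.5 to 119 with sham and 97.5 to 139 with EVs (0.35, adjusted p = 0.40).

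Acss2 and Me1, the other supply genes, were lower with EVs. Acss2, which makes acetyl-CoA from acetate, had 4720, 3699 and 3815 normalized counts with sham and 2886, 2594 and 2542 with EVs. Sham replicate 1 was the highest, and the groups did not overlap (log2 fold change -0.61 ± 0.10, edgeR adjusted p = 0.00086). Me1, the malic enzyme that makes cytosolic NADPH, was scarce, with 64.9, 38.0 and 91.1 with sham and 11.0, 5.14 and 6.96 with EVs. All EV-treated libraries were lower (log2 fold change -3.06 ± 0.59, adjusted p = 0.0027). The call was lost without sham replicate 3 (-2.73, adjusted p = 0.015), EV replicate 2 (adjusted p = 0.017) or EV replicate 3 (adjusted p = 0.019). Me1 shares 28.6% of its 31-base words with Gm7049 and 36.9% with other genes in all.

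The desaturases differed among themselves. Fads1, the delta-5 desaturase of long polyunsaturated fatty acids, had 910, 1118 and 896 normalized counts with sham and 378, 416 and 373 with EVs. It was lower in every EV-treated library (log2 fold change -1.32 ± 0.12, edgeR adjusted p = 1.7e-05). Fads2, the delta-6 desaturase of the same route, had 297, 237 and 266 with sham and 537, 380 and 448 with EVs. It was higher (0.77 ± 0.17, adjusted p = 0.0053), but the call was lost without sham replicate 2 (adjusted p = 0.017) or 3 (0.018), or EV replicate 1 (0.028) or 3 (0.023). The 95% confidence intervals of the log2 fold changes were -1.59 to -1.06 for Fads1 and 0.39 to 1.14 for Fads2. Scd1, a delta-9 desaturase that makes oleate, had 58.6, 45.4 and 188 with sham and 19.98, 8.57 and 2.61 with EVs.

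Sham replicate 3 had the most Scd1, and the groups did not overlap (log2 fold change -3.23 ± 0.77, edgeR adjusted p = 0.0087). Without sham replicate 3 the log2 fold change was -2.32 (adjusted p = 0.060), and the call was also lost without EV replicate 2 (0.042) or 3 (0.034). Scd2, the related desaturase, was far more abundant per kilobase, with a mean of 343 normalized counts with sham against 20.2 for Scd1. It had 1720, 2028 and 1870 normalized counts with sham and 2527, 2277 and 2239 with EVs. Its groups did not overlap, but it lay just outside the threshold (0.33 ± 0.08, adjusted p = 0.011) and passed without sham replicate 2 (adjusted p = 0.0074). Scd1 and Scd2 share 5.84% and 4.83% of their 31-base words with Scd3.

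**Figure D3:**
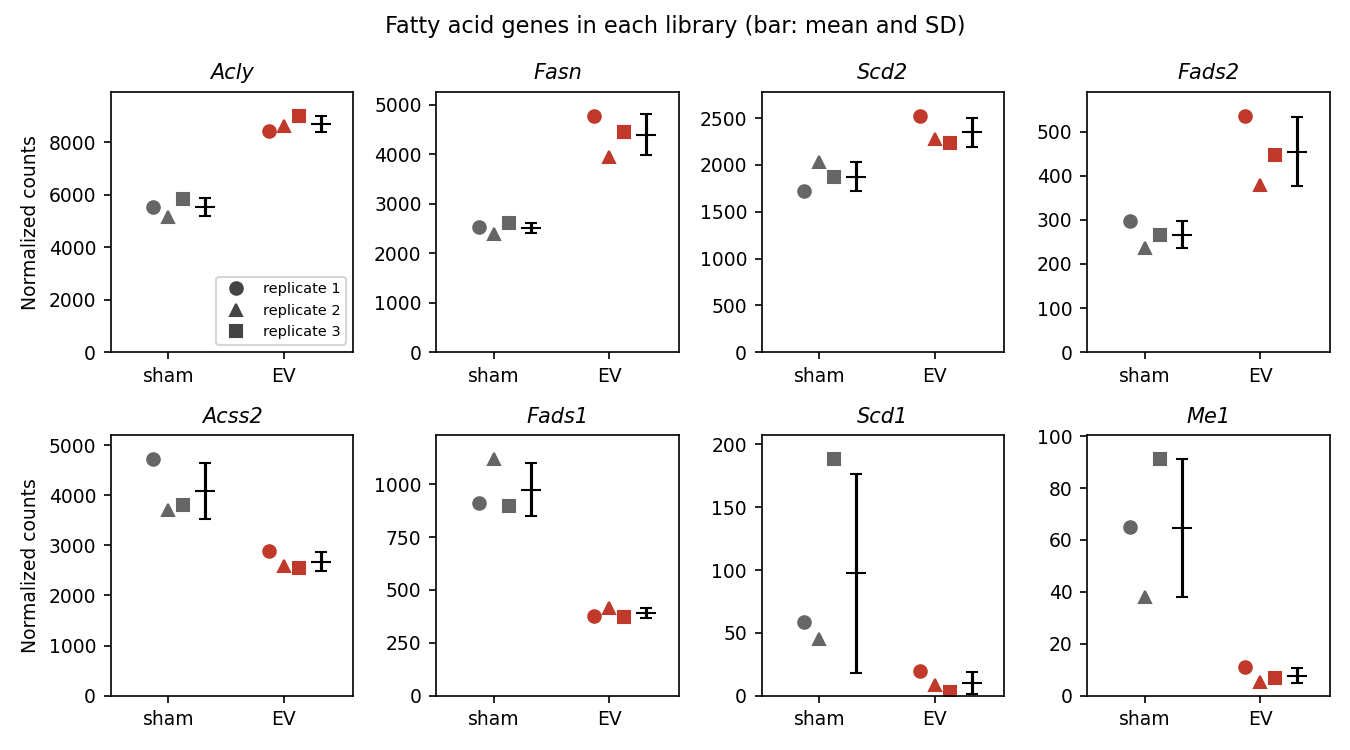
Normalized counts (y axis, from 0) of 8 fatty acid genes in each sham-treated (grey) and EV-treated (red) library (x axis), with symbols for the replicate number and a black bar for the mean and SD of 3 libraries. Acly and Fasn are higher with EVs, Fads1 falls from 896 to 1118 with sham to 373 to 416 with EVs, and for Scd1 sham replicate 3 at 188 lies far above the others.

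The calls that did not depend on a single library covered 13 of the 23 called genes, which passed in all 6 fits that left out a library. These were Idi1, Fdps, Sqle, Lss, Cyp51, Sc5d, Srebf2, Insig1, Stard4, Acly, Fasn, Acss2 and Fads1. Library totals in place of TMM ended the calls of Hmgcs1, Mvd, Fdft1, Msmo1, Hsd17b7, Ebp, Scap and Fads2, with adjusted p from 0.011 for Mvd to 0.188 for Scap. With limma the calls of Hmgcs1, Mvd, Sqle, Msmo1, Hsd17b7, Ebp, Sc5d, Scap, Fads2, Acss2 and Scd1 were lost, with adjusted p from 0.011 for Sqle to 0.044 for Scap. The number called higher was 19 with all libraries, and 12 without EV replicate 2 or without EV replicate 3. The number called lower was 4 with all libraries, and 2 without sham replicate 3, EV replicate 2 or EV replicate 3. The coefficient of variation was larger among sham-treated than EV-treated libraries for 22 of the 34 genes, with medians of 11.3% and 6.21%. Over all genes tested it was larger among sham-treated libraries for 9919 of 13498 genes, with medians of 12.9% and 7.14%.

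Neighbouring routes were read from lists of genes fixed by role, also with earlier results known. Over all genes tested, 12.1% were higher and 11.6% lower, and each count below is to be read beside those shares. Of 13 genes that process or turn over SREBPs, 3 were higher and 1 was lower, with a median log2 fold change of 0.05. Fbxw7, a ubiquitin ligase subunit that marks nuclear SREBPs for breakdown, rose by 0.61 ± 0.08 (edgeR adjusted p = 0.00019) and Rnf139, a ligase of the endoplasmic reticulum, by 0.45 ± 0.09 (adjusted p = 0.0028). Pgrmc1, a haem-binding membrane protein, fell by 0.57 ± 0.10 on the log2 scale (adjusted p = 0.0015). Of 6 tested genes of the remaining sterol synthesis and uptake list, 3 were higher and 1, Cyb5r3, which passes electrons to the sterol oxidases, was lower (-0.76 ± 0.08, adjusted p = 6.6e-05). The median of that list was 0.48. Of 14 genes of the isoprenoid branch, which draws on farnesyl pyrophosphate for prenylation, ubiquinone and dolichol, 0 were higher and 0 lower by edgeR at adjusted p under 0.01, with a median of -0.12.

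Of 15 tested genes of sterol efflux, storage and LXR, 10 were lower, 1 was higher and 4 did not pass, with a median log2 fold change of -0.73. The gene that was higher was Lpcat3, a phospholipid-remodelling enzyme and a known LXR target (1.12 ± 0.06, edgeR adjusted p = 7.8e-07). Abca1, which exports cholesterol to apolipoprotein A-I and is a known LXR target, had 4164, 7114 and 6855 normalized counts with sham and 272, 586 and 571 with EVs. All EV-treated libraries lay far below (log2 fold change -3.66 ± 0.29, edgeR adjusted p = 7.4e-06). Cyp27a1, which makes 27-hydroxycholesterol, was scarce, with 36.9, 89.5 and 40.1 with sham and 3.00, 12.0 and 1.74 with EVs (-3.27 ± 0.80, adjusted p = 0.0096). Nr1h3, which encodes LXR alpha, had 156, 310 and 192 with sham and 36.0, 55.7 and 25.2 with EVs (-2.48 ± 0.37, adjusted p = 0.00048). The 25 other genes of fatty acid synthesis and esterification had a median of 0.01. Of them 4 were higher and 3 lower, close to the 12.1% and 11.6% of all genes tested. The called genes of that list included Dgat2, which makes triglyceride (-1.37 ± 0.31, adjusted p = 0.0064), Acsl1, which activates fatty acids (-0.55 ± 0.10, adjusted p = 0.0019), and Hacd4, of the elongation complex family (0.53 ± 0.07, adjusted p = 0.00029). Of 22 genes of fatty acid oxidation, 0 were higher and 1, Cpt1a, which admits fatty acids to mitochondria, was lower (-0.28 ± 0.06, adjusted p = 0.0032), with a median of -0.20.

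**Figure D4:**
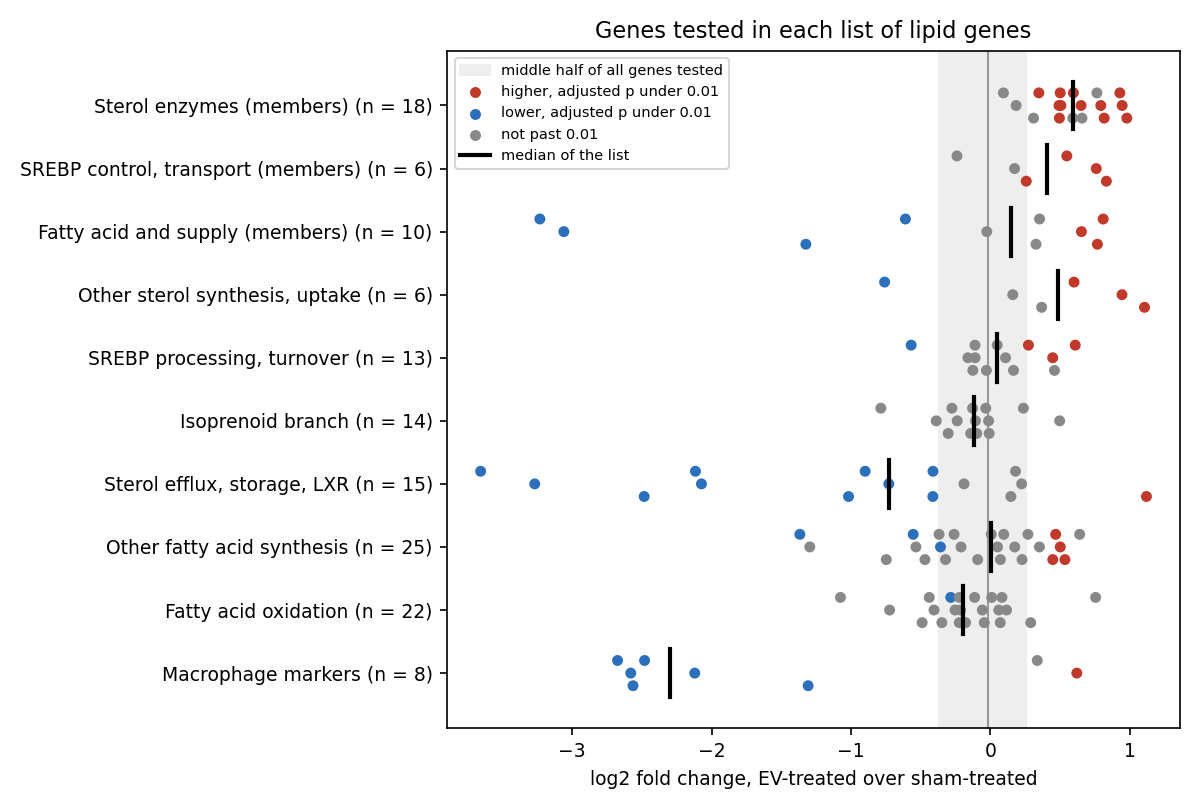
Log2 fold change of EV-treated over sham-treated libraries (x axis) for each tested gene of 10 gene lists (y axis), with colour for the call, a black line for the list's median and a grey band for the middle range (first to last quartile) of all genes tested. Most sterol enzymes (median 0.59) lie right of the band, with Pmvk and Dhcr7 inside it. The sterol efflux list (median -0.73) and macrophage markers (median -2.30) lie mostly left of it.

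Eosinophil markers were abundant, and markers of other cell types differed between the groups as well. Over all genes tested, 12.1% were higher with EVs and 11.6% lower. Of 11 eosinophil markers, 7 were higher with EVs and 0 lower, while Prg2, Prg3, Il5ra and Cebpe did not pass. The 11 summed to 897301 to 1133606 normalized counts with sham and 1265158 to 1424005 with EVs. Most of that sum was Prg2, with 558759 to 717371 with sham and 712821 to 777590 with EVs. Its groups overlapped (log2 fold change 0.23, edgeR adjusted p = 0.048). Of 8 macrophage markers, 6 were lower, C1qb and Csf1r among them, and 1, Adgre1, which eosinophils also express, was higher, with a median log2 fold change of -2.30. C1qb had 3128, 6296 and 5701 with sham and 498, 1065 and 1134 with EVs. The summed macrophage list was 41719 to 56281 with sham and 39907 to 44530 with EVs. Without Adgre1 the other 7 summed to 20513 to 35185 with sham and 7821 to 11150 with EVs, ranges that did not overlap. None of the 8 was at 0 in any library. In these bulk libraries fewer cells of a type and less RNA per cell cannot be told apart, and the part of macrophage-marked RNA in the falls of Abca1, Nr1h3, Scd1, Me1 and Fads1 was not tested.

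Of 6 tested mast cell and basophil markers, 4 were higher and 0 lower, with a median log2 fold change of 1.43. Fcer1a (1.55, edgeR adjusted p = 0.011) and Kit (-0.23, adjusted p = 0.35) did not pass. Their sum was 4101 to 5233 normalized counts with sham and 9891 to 11712 with EVs. Gata2 alone had 2244 to 2611 with sham and 4948 to 5485 with EVs. Of 6 tested neutrophil markers, 4 were lower and 0 higher, with sums of 14591 to 16877 and 10497 to 13828. Of the T cell markers 2 could be tested, of which Cd28 was lower (log2 fold change -3.70, edgeR adjusted p = 3.7e-05). The other, Cd3d, did not pass and its groups overlapped (0.35, adjusted p = 0.71). The list summed to 336 to 846 with sham and 64.9 to 123 with EVs. Most of the sham sum was Cd28, with 292 to 707, so the sum chiefly restates that gene. The part of these markers in the change of the 34 genes was not tested. The sterol enzymes together summed to 10509 to 11569 normalized counts with sham and 17220 to 17580 with EVs.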

How the data were processed

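RNA from 3 sham-treated and 3 EV-treated replicates was analysed, grouped by the treatment and replicate number in the labels. According to the submitters' processing notes, the authors used FastQC, cutadapt, Salmon and DESeq2 with build mm10. Versions, annotation and strand setting are not given in the sources used here. The authors deposited estimated counts for 16254 genes, and a table of normalized counts, which is a signal scaled by a size factor per library and which, for nearly all values, equals the rounded count plus 1 over that factor. Their comparison table holds fold changes, statistics and p-values and was not used. The number of other per-sample columns left unused was 0.

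Estimated counts were rounded and tested with edgeR 4.0.16 in R 4.3.3 (TMM scaling, filterByExpr, quasi-likelihood test), although the study used DESeq2. Normalized counts in the text are rounded counts scaled by TMM. The SE is log2 fold change over the root of F. On simulated counts with 200 changed genes among 13624, edgeR recovered 200, with 2 false calls. In the data 1632 genes were called higher and 1572 lower, and recovery with that many changed genes was not tested. Recovery by size of fold change or by spread between libraries was not tested either. The smallest replicate-pair chi-square was 8.37 per gene, so no library repeated another. Alternatives were DESeq2 1.42.0, limma 3.58.1 on the authors' normalized counts (log2, pseudocount 1), other scalings, no filter, a replicate block, other thresholds and leaving out each library.

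The members and lists were chosen with earlier results of these data known. Every library's value is given for called members changed by 0.5 or more on the log2 scale and for Srebf1, Srebf2, Insig1, Hmgcs1, Sqle, Fasn, Acaca, Scd1 and Scd2. From each other list, up to 3 called genes with the largest absolute change were named, and Lpcat3 and the markers were chosen after their values were seen. Some genes that this rule would name are not reported here. Shared sequence was measured as 31-base words in GENCODE transcripts.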

Additional observations from a re-analysis of the deposited data

How the results depend on the processing

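The number of genes higher with EVs (19) was 11 with library totals in place of TMM scaling, 11 with limma and 0 when a log2 fold change of at least 1 was also required, and ranged from 12 to 18 when a library was left out. It was 21 with RLE scaling, 22 with DESeq2, 21 without the low-count filter and 23 at adjusted p under 0.05. DESeq2 added Mvk (adjusted p = 0.0087), Nsdhl (0.0028) and Scd2 (0.0021), and limma added Mvk (adjusted p = 0.0061). The number lower (4) was 2 with limma, ranged from 2 to 4 when a library was left out, was 3 with the added fold threshold, and was 4 under the other alternatives. Without TMM scaling the median of all genes shifted by -0.15 on the log2 scale. No called gene changed sign, and 10 of 23 were called under every alternative at adjusted p under 0.01. Of the uncalled genes, Pmvk was -0.052 without TMM and -0.21 without sham replicate 2 (range -0.21 to 0.30 when a library was left out), and Acaca was 0.034 without EV replicate 3 (range -0.093 to 0.034). The cause was not tested.

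With the replicate number as a block, 20 genes were higher and 4 lower. Deviations of same-numbered libraries from their group means correlated at 0.12, 0.08 and 0.04 across genes. These values were small but above 0, and 5 of 6 libraries correlated best with their own number. Whether same-numbered libraries share a mouse or culture is not given, so the main fit left the number out. The block ended the call of Scap and added Nsdhl and Scd2. Depth limits chiefly Me1, Scd1 and Cyp27a1, which had few counts in EV-treated libraries.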
